A study of Mus with 18 samples.

Results

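The 10 genes described here encode components of the ciliary zonule and of microfibrils, and they were taken by symbol and identifier out of 55416 gene identifiers in the count tables. They were chosen with results of these data known, and the study itself singled out Fbn1, Fbn2, Ltbp2 and Loxl1 in comparisons at 6 h PCS. They are Fbn1 (ENSMUSG00000027204), Fbn2 (ENSMUSG00000024598), Ltbp2 (ENSMUSG00000002020), Mfap2 (ENSMUSG00000060572), Mfap5 (ENSMUSG00000030116), Emilin1 (ENSMUSG00000029163), Adamtsl4 (ENSMUSG00000015850), Adamts10 (ENSMUSG00000024299), Lox (ENSMUSG00000024529) and Loxl1 (ENSMUSG00000032334). All 10 had a count, and 9 passed the filter on low counts in at least one comparison. Mfap5 did not, with 19 counts over all libraries.

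The study asked how mouse lens epithelial cells (LECs) respond to removal of the lens fiber cells, a surgical model of cataract surgery, and what the transcription factors Egr1 and FosB contribute. RNA was sequenced from lens capsules with their attached cells in 18 libraries, 3 in each of 6 groups. Wild type (WT), Egr1KO and FosBcKO mice, all labelled C57BL/6 and 3 to 5 months old, were sampled at 0 h and at 6 h post cataract surgery (PCS). Each library pooled capsules of 5 animals, so the replicates are separate pools. Egr1KO mice lacked Egr1 in the whole animal, from an allele first made on a mixed B6N and 129 background. In FosBcKO mice exons 2 and 3 of a floxed Fosb allele were removed by the MLR10 cre transgene, which a modified alpha-A crystallin promoter drives in lens cells. For the sequenced WT pools, the sources used here do not say whether the mice were littermates of either line or carried the cre.

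The zonule is the system of fibers that hangs the lens from the ciliary body. Its fibers are bundles of fibrillin microfibrils dressed with accessory glycoproteins, and the non-pigmented epithelium of the ciliary body is the best known source of them. They insert into the lens capsule near the equator, and loss of their components is a known cause of lens dislocation.

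Libraries held 9609295 to 13871592 counted read pairs, and levels below are a gene's count per 1000000 counted pairs (CPM) without a pseudocount. CPM is not corrected for transcript length, so levels are compared between libraries and never between genes. LEC markers were present throughout, with Pax6 at 213 to 706 CPM, Foxe3 at 75.0 to 275 CPM and Prox1 at 223 to 1106 CPM. Pax6, Prox1 and Pitx3 were lower at 6 h PCS in WT (edgeR quasi-likelihood F-test, FDR 0.0069, 0.0063 and 0.0080). Prox1 and Pitx3 were also lower in both knockouts without overlap, where 14.7% (Egr1KO) and 10.5% (FosBcKO) of all genes with a count were. Pax6 overlapped between the times in both knockouts. Markers of other eye tissues were present as well, and their summed levels differed between libraries. The WT 0 h replicate 2 library stood apart for the zonule genes, so results that rest on it are given with and without it. Gene-level counts of Egr1 and Fosb take in exons outside the altered parts, and at 6 h PCS they were no lower in the knockouts labelled for them (Egr1 at 2083 to 4463 CPM in Egr1KO and 1438 to 2046 CPM in WT, Fosb at 1430 to 1778 CPM in FosBcKO and 767 to 1539 CPM in WT). They therefore do not check the genotype labels.

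Fbn1, Fbn2 and Ltbp2, the structural core of the list, had their highest levels in FosBcKO at 6 h PCS and varied together over the libraries. Fbn1 encodes fibrillin 1, the main protein of zonular microfibrils. In WT its level was 362, 12.0 and 546 CPM at 0 h (replicates 1 to 3) and 148, 37.1 and 144 CPM at 6 h PCS. In Egr1KO it was 141, 485 and 347 CPM at 0 h and 345, 375 and 304 CPM at 6 h PCS. In FosBcKO it was 632, 562 and 598 CPM at 0 h and 1395, 1220.2 and 1051 CPM at 6 h PCS. The 3 FosBcKO libraries at 6 h PCS lay above every other library, the 3 FosBcKO libraries at 0 h came next, and the other groups overlapped apart from Egr1KO at 6 h PCS, which lay above WT at 6 h PCS. Within WT at 0 h, replicate 2 was far under the others, with 135 Fbn1 counts.

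Fbn2 encodes fibrillin 2, the fibrillin best known from developing microfibrils. In WT its level was 27.6, 0.356 and 39.3 CPM at 0 h and 10.6, 3.23 and 12.1 CPM at 6 h PCS. In Egr1KO it was 10.6, 29.8 and 28.3 CPM at 0 h and 35.5, 27.4 and 33.8 CPM at 6 h PCS. FosBcKO had 47.4, 39.2 and 61.6 CPM at 0 h and 151, 100.2 and 85.0 CPM at 6 h PCS. The order of the groups was much as for Fbn1, except that FosBcKO at 0 h overlapped WT at 0 h. The low WT 0 h replicate 2 value rests on 4 counts.

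Ltbp2 encodes latent TGF-beta binding protein 2, which binds fibrillin and is needed for a stable zonule. In WT its level was 113, 4.27 and 241 CPM at 0 h and 54.7, 23.0 and 99.2 CPM at 6 h PCS. In Egr1KO it was 70.8, 183 and 141 CPM at 0 h and 162, 198 and 132 CPM at 6 h PCS. FosBcKO had 287, 227 and 307 CPM at 0 h and 688, 579.6 and 424 CPM at 6 h PCS. The same library, WT 0 h replicate 2, was again lowest. Highest over lowest library was 116-fold for Fbn1, 426-fold for Fbn2 and 161-fold for Ltbp2, against 3.18-fold to 7.36-fold for Mfap2, Emilin1, Adamtsl4, Adamts10 and Loxl1.

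**Figure D1:**
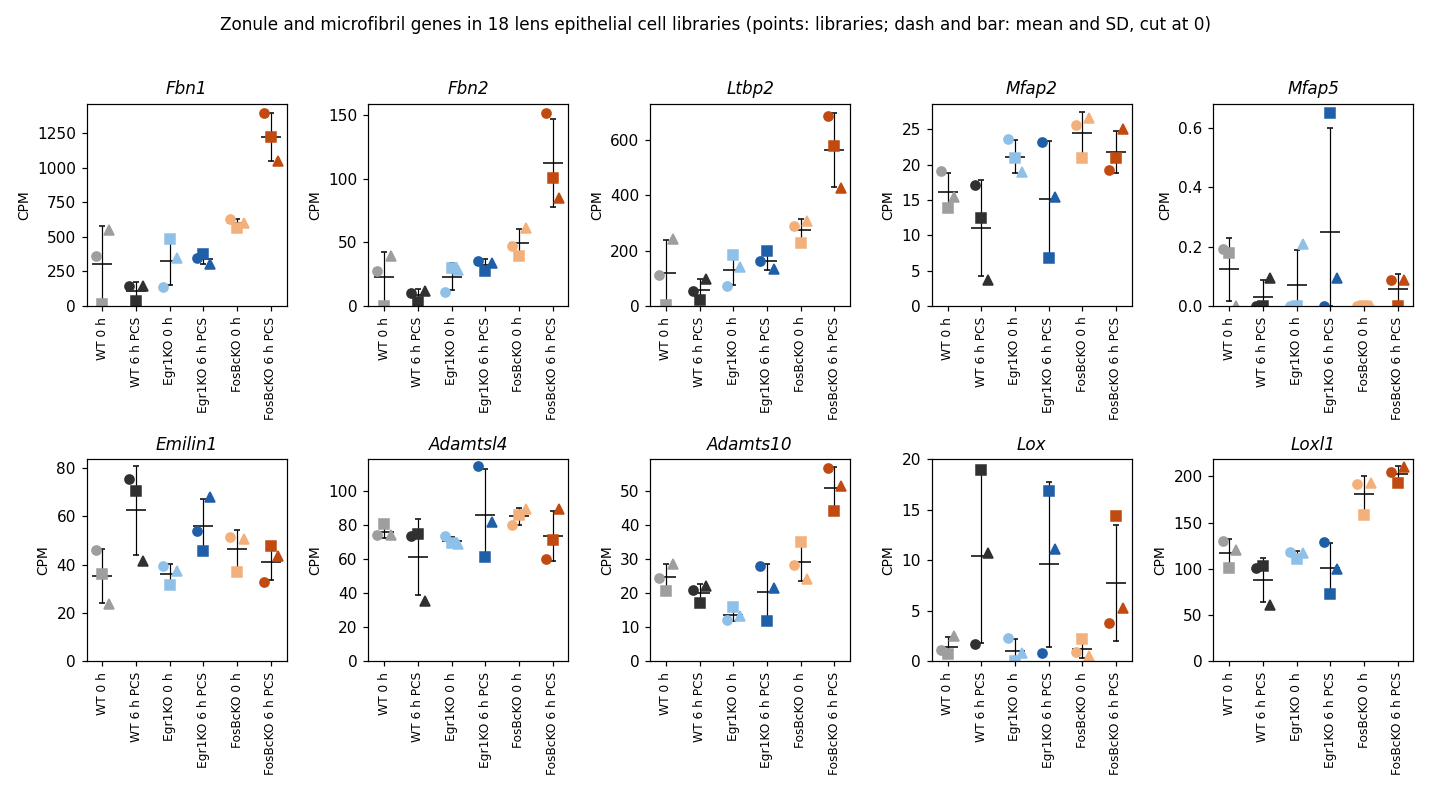
CPM of each of the 10 genes (y axes, linear from 0) in the 6 groups (x axes), where circle, square and triangle are replicates 1, 2 and 3 and the dash and bar are the mean and SD of 3 libraries. Fbn1, Fbn2 and Ltbp2 share one pattern with FosBcKO at 6 h PCS on top, Loxl1 and Adamts10 are also highest there, and Lox is near 0 at 0 h and spread out at 6 h PCS.

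Mfap2 and Mfap5 encode the microfibril-associated glycoproteins MAGP-1 and MAGP-2, and Emilin1 a glycoprotein at the interface of elastin and microfibrils. None of them was called in any comparison. Mfap2 was at 19.1, 13.9 and 15.4 CPM in WT at 0 h and 17.1, 12.5 and 3.62 CPM at 6 h PCS. It was at 18.9 to 23.6 CPM in Egr1KO at 0 h and 6.85 to 23.2 CPM at 6 h PCS, and at 20.9 to 26.7 CPM and 19.2 to 25.1 CPM in FosBcKO. FosBcKO thus lay above WT at both times without overlap, and the exact test gave FDR 0.65 at 0 h and 0.26 at 6 h PCS. Mfap5 was at or near the floor, with 0 counts in 10 libraries and 9 counts at most, so a difference was not detectable at this depth.

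Emilin1 was at 45.9, 36.2 and 23.6 CPM in WT at 0 h and 75.3, 70.5 and 41.4 CPM at 6 h PCS, groups that overlapped. Each same-numbered pair of WT libraries rose. The edgeR quasi-likelihood F-test gave FDR 0.12, and 0.0099 with a replicate block that pairs the numbers, which the labels do not record as pairs. It was not called with the block either, as the change was under 2-fold. In Egr1KO it was at 39.4, 31.5 and 37.4 CPM at 0 h and 53.9, 45.5 and 67.8 CPM at 6 h PCS, without overlap and with FDR 0.049, but the change was under 2-fold (edgeR quasi-likelihood F-test). In FosBcKO it was at 36.9 to 51.3 CPM at 0 h and 32.7 to 47.5 CPM at 6 h PCS. Emilin1 therefore did not share the pattern of the fibrillins.

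Adamtsl4 encodes an ADAMTS-like protein that promotes fibrillin 1 deposition and whose loss displaces the lens. It varied little at 0 h, at 68.5 to 89.2 CPM over all 9 libraries, and at 35.4 to 115 CPM at 6 h PCS. It was called in no comparison. The WT 0 h replicate 2 library, lowest for Fbn1, was at 80.2 CPM.

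Adamts10 encodes a secreted metalloprotease that binds fibrillin 1. In WT it was at 24.6, 20.7 and 28.8 CPM at 0 h and 20.9, 17.2 and 22.3 CPM at 6 h PCS. In Egr1KO it was at 12.2, 15.9 and 13.2 CPM at 0 h and 28.0, 11.8 and 21.5 CPM at 6 h PCS. In FosBcKO it was at 28.3, 35.1 and 24.3 CPM at 0 h and 56.9, 44.2 and 51.6 CPM at 6 h PCS. The FosBcKO 6 h libraries lay above all others, and the Egr1KO 0 h libraries lay under all WT and FosBcKO libraries.

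Lox and Loxl1 encode lysyl oxidases, the copper enzymes that begin the crosslinking of elastin and collagens. Lox was scarce at 0 h, with 0.711 to 2.53 CPM in WT, 0 to 2.28 CPM in Egr1KO and 0.582 to 2.18 CPM in FosBcKO. At 6 h PCS, WT had 1.70, 19.0 and 10.7 CPM, Egr1KO 0.792, 16.9 and 11.1 CPM and FosBcKO 3.78, 14.3 and 5.24 CPM. In each genotype replicate 1 at 6 h PCS was the lowest, and only in FosBcKO did all 3 libraries at 6 h PCS exceed those at 0 h. Loxl1 was at 102 to 130 CPM in WT at 0 h and 61.0 to 103 CPM at 6 h PCS, and at 111 to 118 CPM and 73.2 to 129 CPM in Egr1KO. In FosBcKO it was at 192, 159 and 193 CPM at 0 h and 205, 193 and 210.0 CPM at 6 h PCS, above every WT and Egr1KO library at both times.

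To see how these genes responded to lens injury, 6 h PCS was compared with 0 h in each genotype by edgeR's quasi-likelihood F-test over all genes. A gene counts as called where the Benjamini-Hochberg false discovery rate (FDR) over all genes tested was at most 0.05 and the change more than 2-fold. In WT, 1 of 9 genes tested was called, Lox, which was higher at 6 h PCS, where 13.5% of all genes tested were called higher. Its log2 fold change was 2.74 ± 0.85 (standard error), at FDR 0.049 by the edgeR test, and the call was lost in 7 of 16 alternatives, 5 of which left out a single library. The median log2 fold change of the 9 genes was -0.50, against -0.02 over all genes.

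The 0 h WT group includes the library that stood apart. Without WT 0 h replicate 2, Fbn1 and Fbn2 were called lower at 6 h PCS in WT, where 2.42% of all genes tested were, with log2 fold changes of -2.18 and -2.08 (edgeR quasi-likelihood F-test, FDR 0.026 and 0.022), Ltbp2 was at -1.72 (FDR 0.056), and Lox was no longer called (FDR 0.11). With that library in the fit, Fbn1 was at -1.60 ± 1.15 (standard error), and the same edgeR test gave it FDR 0.34. In bulk samples, fewer cells of a type and less RNA per cell cannot be told apart.

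In Egr1KO, the same test called 0 of 9 genes, where 12.0% of all genes tested were called in either direction. Emilin1 and Lox had an unadjusted p under 0.05, where 37.6% of all genes tested did, DESeq2 called 0, and Emilin1 was the 1 gene whose groups did not overlap, where 12.9% of all genes with a count were higher without overlap. Without Egr1KO 6 h replicate 1, Lox was called (log2 fold change 3.69, edgeR quasi-likelihood F-test, FDR 0.021). The median of the 9 genes was 0.37, against 0.00 over all genes.

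In FosBcKO, 4 of 9 genes were called, all higher at 6 h PCS, where 11.2% of all genes tested were called higher. Fbn1 rose 2.05-fold, with a log2 fold change of 1.03 ± 0.17 (standard error; edgeR quasi-likelihood F-test, FDR 0.0049). Fbn2 rose 2.25-fold (edgeR quasi-likelihood F-test, FDR 0.011), Ltbp2 2.06-fold (FDR 0.0097) and Lox 6.66-fold (FDR 0.020). Adamts10 changed less than 2-fold (log2 fold change 0.80, edgeR quasi-likelihood F-test, FDR 0.011), and 6 of the 10 genes did not overlap between the times, where 14.8% of all genes with a count were higher without overlap. The folds of Fbn1 and Ltbp2 sat just over the limit of 2-fold. DESeq2 called only Fbn2 and Lox of the 4, and leaving out FosBcKO 0 h replicate 2 or 6 h replicate 1 kept Lox alone, and without 6 h replicate 2 only Fbn2 was called. Lox was also lost without 0 h replicate 1 or 3, and one fit of all 18 libraries called none of the 4.

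Whether the responses differed between genotypes was tested as an interaction over all 18 libraries. The edgeR quasi-likelihood F-test called 0 of 9 genes for Egr1KO and 0 of 9 for FosBcKO, where 0.0% of all genes tested were called. At an unadjusted p under 0.05 there were 1 gene for Egr1KO, Adamts10, and 4 for FosBcKO, which were Fbn1, Fbn2, Emilin1 and Adamts10, where 6.53% and 6.7% of all genes tested had such a p. DESeq2 called 0 and 0. The fit without a filter on low counts called Fbn1, Fbn2 and Ltbp2 in both, where 0.75% of all genes were called for Egr1KO and 1.15% for FosBcKO. A difference between the response of FosBcKO and that of WT was thus not established for any of the 9 genes by the filtered fit.

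**Figure D2:**
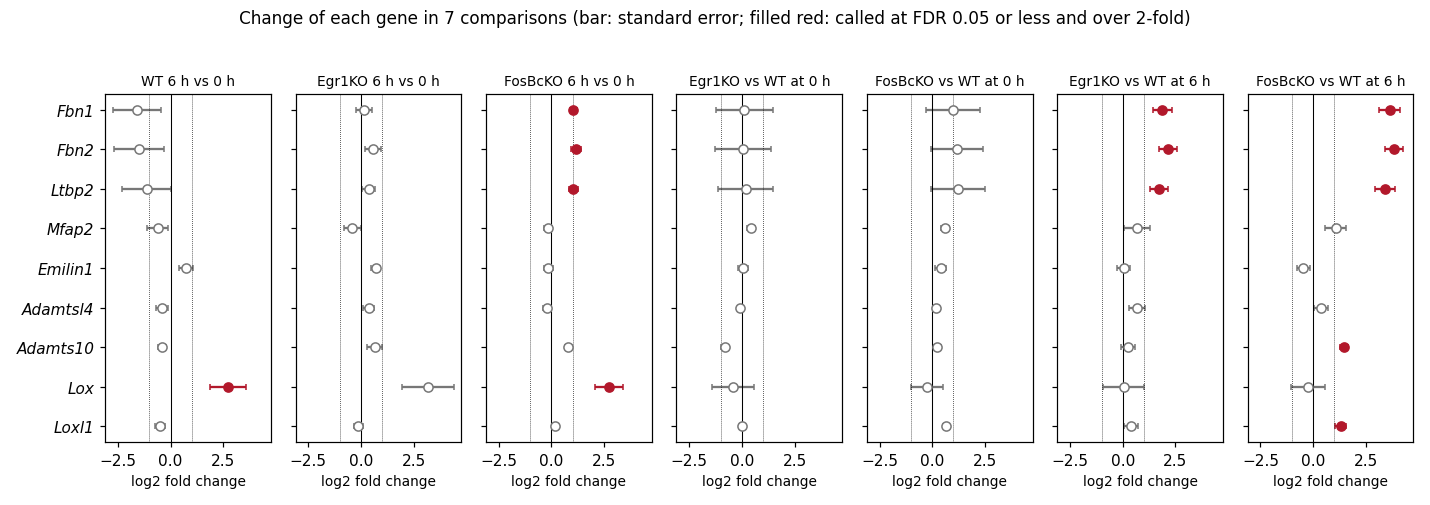
Log2 fold change (x axes) of 9 genes (rows) in 7 comparisons (panels), with the standard error of the quasi-likelihood fit as bars and filled red points for calls at FDR 0.05 or less and over 2-fold, the limits of which are dotted. Calls for Fbn1, Fbn2 and Ltbp2 appear in FosBcKO at 6 h against 0 h and in both knockouts against WT at 6 h, and their bars are widest where WT at 0 h enters.

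Each knockout was then compared with WT by edgeR's exact test, to see what Egr1 or FosB contribute in uninjured and in injured LECs. Both comparisons at a time use the same WT libraries. In uninjured LECs, 0 of 9 genes were called for Egr1KO and 0 of 9 for FosBcKO by the exact test, where 0.41% and 0.295% of all genes tested were called in either direction. The quasi-likelihood F-test and DESeq2 also called 0 in both. At an unadjusted p under 0.05 there were 1 gene in Egr1KO, Adamts10, and 2 in FosBcKO, Mfap2 and Loxl1, where 6.4% and 5.62% of all genes tested had such a p. Adamtsl4 and Adamts10 were lower in all Egr1KO than in all WT libraries, where 7.23% of all genes with a count were lower without overlap. Fbn1, Mfap2 and Loxl1 were higher in all FosBcKO than in all WT libraries, where the share was 5.11%. For Loxl1 in FosBcKO the exact test gave FDR 0.063, the quasi-likelihood F-test 0.14 and DESeq2 0.0030. For Adamts10 in Egr1KO they gave 0.090, 0.12 and 0.034. Both changes were under 2-fold, at 1.54-fold higher and 1.76-fold lower, so DESeq2 called neither. Without WT 0 h replicate 2, the log2 fold change of Fbn1 in Egr1KO turned from 0.12 to -0.45 and in FosBcKO fell from 0.98 to 0.41, with no call in either case (edgeR exact test, FDR 0.92 and 0.85).

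At 6 h PCS, Fbn1, Fbn2 and Ltbp2 were called higher in both knockouts by the exact test, with the larger differences in FosBcKO. In Egr1KO these were the 3 of 9 genes called, where 0.461% of all genes tested were called higher. The study singled out these 3 genes from this comparison, so the count is no independent evidence. Fbn1 was 3.67-fold higher, with a log2 fold change of 1.87 ± 0.45 (standard error; edgeR exact test, FDR 0.015), Fbn2 4.42-fold higher (FDR 0.0026) and Ltbp2 3.30-fold higher (FDR 0.027). All 3 lay above WT without overlap, where 2.4% of all genes with a count were higher without overlap. None of them was called when these 6 libraries were tested by quasi-likelihood (edgeR F-test, FDR 0.53, 0.43 and 0.54), nor in a fit with a replicate block (FDR 0.69 for each) or in one fit of all 18 libraries. Leaving out Egr1KO 6 h replicate 3 kept only Fbn2, and leaving out WT 6 h replicate 1 lost Ltbp2.

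In FosBcKO at 6 h PCS, 5 of 9 genes were called, all higher than in WT, where 4.48% of all genes tested were called higher. The study singled out Fbn1, Fbn2, Ltbp2 and Loxl1, which are 4 of the 5, from this comparison too, so the count is no independent evidence. Fbn1 was 12.4-fold higher, with a log2 fold change of 3.63 ± 0.49 (standard error; edgeR exact test, FDR 6.4e-11). Fbn2 was 14.3-fold higher (edgeR exact test, FDR 3.6e-14) and Ltbp2 10.7-fold higher (FDR 2.5e-10). Adamts10 was 2.75-fold higher (edgeR exact test, FDR 5.3e-08) and Loxl1 2.47-fold higher (FDR 0.00062). These 5 and Mfap2 did not overlap with WT, where 6.63% of all genes with a count were higher without overlap. The 5 calls held by the quasi-likelihood F-test, DESeq2 and the fits without any single library. With a replicate block only Fbn2 was called (FDR 0.042), with FDR 0.051 to 0.11 for the others, and in one fit of all 18 libraries Fbn1 (FDR 0.057) and Ltbp2 (FDR 0.069) were not called. The median log2 fold change of the 9 genes was 1.30, against 0.00 over all genes, while Emilin1, Adamtsl4 and Lox were not called.

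The knockouts were also compared with each other, which uses no WT library. In uninjured LECs, 1 of 8 genes tested was called by the exact test, Adamts10, which was 2.09-fold lower in Egr1KO (log2 fold change -1.07 ± 0.19, standard error; edgeR exact test, FDR 0.00022), where 0.734% of all genes tested were called lower. The call was lost in 3 of 16 alternatives, which were the fit of all 18 libraries and those without Egr1KO 0 h replicate 1 or FosBcKO 0 h replicate 2. Loxl1 was 1.55-fold lower, under the fold limit (edgeR exact test, FDR 0.0031). At 6 h PCS, 4 of 9 genes were called, all lower in Egr1KO, where 2.28% of all genes tested were called lower. Fbn1 was 3.35-fold lower (log2 fold change -1.74 ± 0.20, standard error; edgeR exact test, FDR 5.4e-09), Fbn2 3.21-fold lower (FDR 3.0e-06) and Ltbp2 3.22-fold lower (FDR 1.1e-06). None of the 3 was called with a replicate block (edgeR F-test, FDR 0.081 to 0.086) or in one fit of all 18 libraries (FDR 0.40 to 0.42). Adamts10 was 2.30-fold lower (edgeR exact test, FDR 0.041), a call that held in 6 of 16 alternatives. Without overlap, 6 genes were lower in Egr1KO at 0 h and 5 at 6 h PCS, where the shares of all genes with a count were 6.37% and 8.3%.

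Markers of the non-pigmented ciliary epithelium, the cells that lie next to the zonule's outer ends, moved with Fbn1, Fbn2 and Ltbp2, apart from Aqp1. The 7 markers used were Best2 (an anion channel), Slc4a5 (a bicarbonate transporter), Wfdc1, the water channel Aqp1 and the transcription factors Otx1, Zic1 and Zic2. At 0 h their summed level was 177 to 406 CPM in WT and 228 to 316 CPM in Egr1KO, and FosBcKO had 428 to 621 CPM. At 6 h PCS, WT had 219 to 238 CPM, Egr1KO 277 to 383 CPM and FosBcKO 698 to 823 CPM. As for Fbn1, FosBcKO at 6 h PCS lay above every other library and FosBcKO at 0 h came next. Aqp1 did not follow the other markers. It was at 151 to 172 CPM in WT at 0 h and 96.6 to 174 CPM at 6 h PCS, and in FosBcKO at 226 to 357 CPM and 142 to 315 CPM. As this channel is also known in LECs it was left out of the sums below, a choice made after its values were seen, and the ratios are also given with it.

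Without Aqp1, the summed level of the 6 markers ranged from 4.62 CPM in WT 0 h replicate 2 to 618 CPM in FosBcKO 6 h replicate 1, the libraries that were also lowest and highest for Fbn1, Fbn2 and Ltbp2. In WT 0 h replicate 2, Otx1 had 0 counts, Best2 was at 0.178 CPM and Slc4a5 at 2.31 CPM, against 56.2 and 103.7 CPM of Slc4a5 in the other WT libraries at 0 h. The identifiers of these markers came from tables of the study whose shown genes are ordered by p-value. Counts and medians over the 7 are therefore no measure of the list. In FosBcKO against WT at 6 h PCS, 6 of the 7 markers were called higher, all but Aqp1, where 4.48% of all genes tested were. The median log2 fold change of the 7 was 2.76 (edgeR exact test). Slc4a5 had FDR 6.3e-10 in that test. In Egr1KO against WT at 6 h PCS, 1 of the 7, Otx1, was called higher (edgeR exact test, log2 fold change 2.21, FDR 0.013), where 0.461% of all genes tested were.

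**Figure D3:**
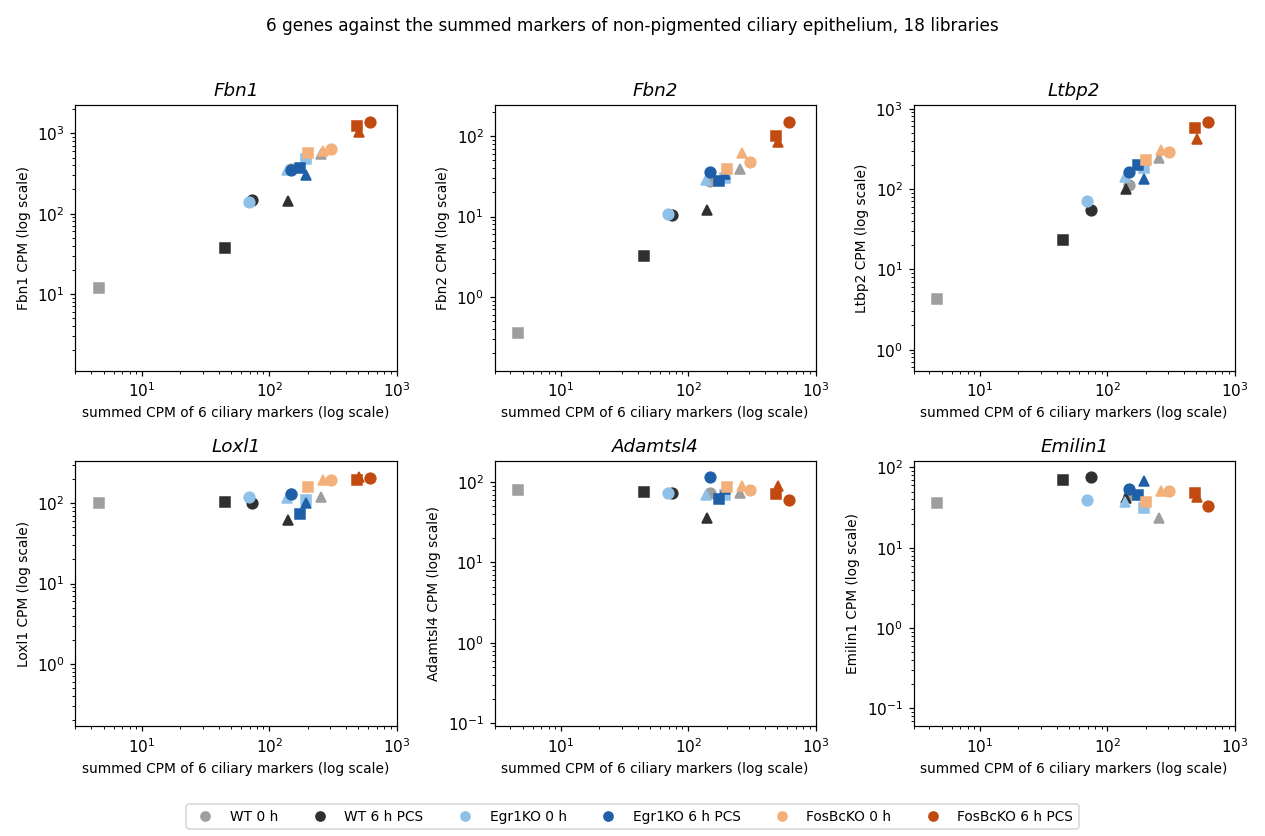
CPM of 6 genes (y axes, log scale with the same fold range in each panel) against the summed CPM of 6 markers of non-pigmented ciliary epithelium (x axes, log scale) in 18 libraries, colored by group, with circle, square and triangle for replicates 1, 2 and 3. Fbn1, Fbn2 and Ltbp2 rise with the marker sum from WT 0 h replicate 2 to FosBcKO at 6 h PCS, while Adamtsl4 and Emilin1 stay nearly level and Loxl1 varies little.

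Set against these 6 markers, the 3 genes varied far less between libraries, which rests on leaving out Aqp1. Ltbp2 had 50.9 to 118 counts per 100 counts of the 6 markers, a 2.31-fold range over the 18 libraries where its CPM ranged 161-fold. Fbn1 had 82.1 to 278 counts per 100, a 3.39-fold range, and Fbn2 7.14 to 24.5, a 3.43-fold range. For Fbn1 the value at 6 h PCS was 128 ± 63.1 (SD, n = 3) in WT, while Egr1KO had 201 ± 39.8 and FosBcKO 227 ± 20.3. The FosBcKO libraries at 226, 248 and 207 lay above all 3 WT libraries, of which replicates 2 and 3 were at 82.1 and 102 and replicate 1 was just under the lowest FosBcKO library. The Egr1KO libraries at 233, 214 and 156 overlapped WT, where the CPM of both knockouts did not. For Ltbp2, WT had 65.1 ± 12.5 (SD, n = 3), Egr1KO 96.8 ± 25.1 and FosBcKO 104.2 ± 18.1, and again FosBcKO lay above WT and Egr1KO overlapped it. For Fbn2, WT had 10.01 ± 3.79 (SD, n = 3), Egr1KO 19.0 ± 4.42 and FosBcKO 20.5 ± 3.87, and both knockouts lay above WT without overlap. The 2 knockouts overlapped each other in all 3 ratios at 6 h PCS, where their CPM did not. Slc4a5 was the largest part of the 6-marker sum at 6 h PCS. In WT it was at 41.4, 25.0 and 81.0 CPM of 73.8, 45.2 and 141 CPM. In FosBcKO it was at 364, 285 and 247 CPM of 618, 492 and 507 CPM. The ratios therefore rest largely on this 1 marker. Without it, WT replicate 1 lay above FosBcKO replicate 3 at 6 h PCS for Fbn1 and Ltbp2, so these groups overlapped. WT replicate 1 had 1566 Fbn1 and 580 Ltbp2 counts. Beside them were 38, 135, 21, 74 and 76 counts of Best2, Wfdc1, Otx1, Zic1 and Zic2. FosBcKO replicate 3 had 12227 and 4938, beside 490, 433, 397, 997 and 709.

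With Aqp1 in the sum, the range over the 18 libraries was 27.1-fold for Fbn1, 99.1-fold for Fbn2 and 37.5-fold for Ltbp2, with WT 0 h replicate 2 lowest in each. At 6 h PCS, Fbn1 per 100 counts of the 7 markers was then 47.7 ± 26.8 (SD, n = 3) in WT, 107 ± 24.8 in Egr1KO and 162 ± 29.98 in FosBcKO. Both knockouts lay above WT for Fbn1 and Fbn2, FosBcKO alone for Ltbp2, and the 2 knockouts again overlapped each other for all 3 genes.

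Over time, Fbn1 per 100 marker counts was 239.6 ± 23.1 (SD, n = 3) at 0 h and 128 ± 63.1 at 6 h PCS in WT, with no overlap. With Aqp1 in the sum the WT times overlapped, at 6.78 to 135 and 16.9 to 65.8. In Egr1KO, without Aqp1, it was 234 ± 27.3 and 201 ± 39.8 and in FosBcKO 237 ± 37.4 and 227 ± 20.3, and the times overlapped in both, while Fbn1 CPM rose 2.05-fold in FosBcKO. In WT, Ltbp2 per 100 counts of the 6 markers was at 76.4 to 94.5 at 0 h and 50.9 to 74.1 at 6 h PCS, also without overlap, but Fbn2 overlapped, at 7.69 to 18.7 and 7.14 to 14.3. The share of Slc4a5 in the WT marker sum was larger at 6 h PCS. It was 56.2, 2.31 and 103.7 CPM of 148, 4.62 and 255 CPM at 0 h. At 6 h PCS it was 41.4, 25.0 and 81.0 CPM of 73.8, 45.2 and 141 CPM. The WT ratios over time therefore depend on this marker. Without it, WT 6 h replicate 1 lay above WT 0 h replicate 3 for Fbn1 and Ltbp2, and the times overlapped. WT 0 h replicate 3 had 5615 Fbn1 and 2475 Ltbp2 counts. Beside them were 241, 405, 130, 436 and 342 counts of Best2, Wfdc1, Otx1, Zic1 and Zic2. WT 6 h replicate 1 had 1566 and 580, beside 38, 135, 21, 74 and 76. In WT 0 h replicate 2, the ratios rest on 26 Slc4a5, 13 Wfdc1, 8 Zic1, 3 Zic2, 2 Best2 and 0 Otx1 counts. Whether the pools held different amounts of ciliary tissue was not tested, as no file used here records it.

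**Figure D4:**
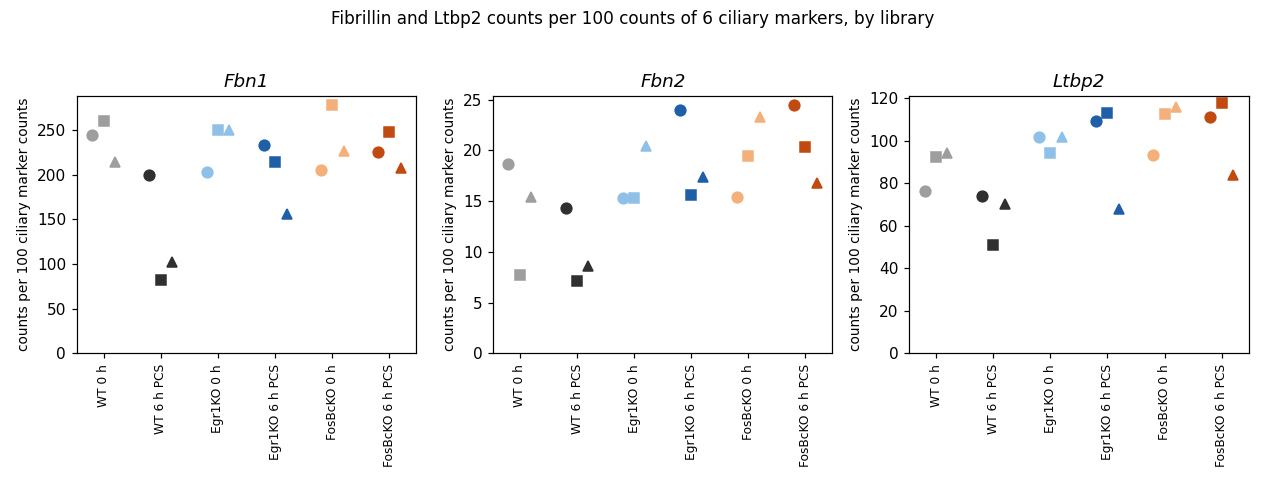
Counts of Fbn1, Fbn2 and Ltbp2 per 100 counts of 6 ciliary markers (y axes, linear from 0) by group (x axes), where circle, square and triangle are replicates 1, 2 and 3. WT at 6 h PCS has the lowest mean for all 3 genes, and FosBcKO at 6 h PCS, which stands out in CPM, overlaps Egr1KO at 6 h PCS and FosBcKO at 0 h.

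Loxl1 kept no fixed proportion to Fbn1, and the ratios of the remaining genes to Fbn1 were not computed. Ltbp2 was at 31.2 to 69.1 counts and Fbn2 at 2.96 to 11.1 counts per 100 Fbn1 counts over the 18 libraries, whereas Loxl1 was at 14.7 to 846. The highest Loxl1 value was that of WT 0 h replicate 2, and WT 6 h replicate 2 came next at 278. Of the markers of other tissues, some were higher in FosBcKO than in WT at 6 h PCS and some were not. The 4 fibroblast and trabecular meshwork markers with an identifier, of 8 listed, summed to 132 to 162 CPM in FosBcKO and 15.4 to 25.5 CPM in WT. Most of that sum was Col1a2, at a mean of 124 and 12.4 CPM, while Col1a1 was at 5.82 and 4.35 CPM and Dcn at 1.83 and 0.742 CPM. The 6 leukocyte markers summed to 70.9 to 74.0 CPM and 17.3 to 28.0 CPM, with Cd74 at a mean of 45.9 and 8.76 CPM and Cd68 at 3.85 and 6.07 CPM. The 7 markers of pigmented cells of the iris and ciliary body with an identifier, of 10 listed, overlapped in sum. They were at 477 to 593 CPM in FosBcKO and 247 to 632 CPM in WT, where replicate 3 was the highest library of all. The largest part was Trpm1, at a mean of 234 CPM in FosBcKO and 267 CPM in WT. Tyr, Tyrp1, Mlph and Rab38 were each higher in FosBcKO without overlap, where 6.63% of all genes with a count were. Tyrp1, for example, was at 39.0 to 63.2 CPM and 7.63 to 28.0 CPM. Dct and Pmel overlapped, with higher means in FosBcKO. The 4 photoreceptor markers with an identifier, of 6 listed, summed to 621 to 1724 CPM in FosBcKO and 1636 to 3955 CPM in WT. These sums also differed between the times. From 0 h to 6 h PCS the mean photoreceptor sum went from 238 to 2604 CPM in WT, 237 to 1451 CPM in Egr1KO and 238 to 1053 CPM in FosBcKO. For pigmented cells it went from 159 to 380, 111 to 379 and 175 to 525 CPM. The fibroblast and trabecular meshwork sum instead fell in WT, from 41.6 to 20.3 CPM. The corneal markers Krt12 and Krt5 were high in single libraries, summing to 135 and 299 CPM in FosBcKO 6 h replicates 1 and 3 against 0.518 CPM in replicate 2. The part of these tissues in the results was not tested.

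The genes most like Fbn1 over the 18 libraries, by Pearson's r of log2(CPM + 1) among 15054 genes with a mean of at least 1 CPM, were Slc6a13 (r = 0.993, rho = 0.948), a GABA and taurine transporter, and Vcan (r = 0.992, rho = 0.977), the proteoglycan versican. Slc6a13 was at 0.356 CPM in WT 0 h replicate 2 and 79.9 to 109 CPM in FosBcKO at 6 h PCS. Optc, which encodes opticin, a proteoglycan of the vitreous made by the ciliary epithelium, ranked 3 (r = 0.991) and was named after its values were seen. Fbn2 ranked 4 (r = 0.989) and Ltbp2 7 (r = 0.987). Without WT 0 h replicate 2, r was 0.987 for Slc6a13 and 0.985 for Vcan. For deviations from group means, which hold no difference between groups, r was 0.986 and 0.995. Those deviations took in all 18 libraries, WT 0 h replicate 2 among them. By contrast r with Fbn1 was 0.612 for Loxl1, 0.545 for Adamts10, 0.387 for Mfap2, 0.0837 for Adamtsl4, -0.0197 for Lox and -0.233 for Emilin1. These values describe libraries that share groups and pools, so no p-value is given.

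Other microfibril and elastic fiber genes fell into the same kinds. Of 27 listed, 20 had an identifier, taken from tables of the study whose shown genes are ordered by p-value, so counts over them are no measure of the list. In FosBcKO against WT at 6 h PCS, 13 of the 20 were called higher and 1, Loxl4, lower (edgeR exact test). Of all genes tested, 4.48% were called higher and 0.929% lower. Fbln1, encoding fibulin 1, was at 176, 66.2 and 200.4 CPM in WT and 1700.3, 1502 and 1142 CPM in FosBcKO, with a log2 fold change of 3.45 (edgeR exact test, FDR 2.5e-13). Mfap4, a microfibril-associated glycoprotein, was at 19.3, 11.9 and 32.4 CPM in WT and 230.0, 225 and 175 CPM in FosBcKO (log2 fold change 3.46, edgeR exact test, FDR 2.8e-18). Both were low in WT 0 h replicate 2, at 13.2 and 1.33 CPM. Ltbp3, which carries latent TGF-beta, was less uneven, at 209 to 236 CPM in WT and 424 to 503 CPM in FosBcKO at 6 h PCS and at 255 CPM in WT 0 h replicate 2.

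In Egr1KO against WT at 6 h PCS, 5 of the 20 were called higher, Col18a1, Fbln1, Ltbp1, Mfap4 and Vcan (edgeR exact test). Of all genes tested, 0.461% were called higher, and the count is again no measure of the list. The study had singled out Ltbp1 and Col18a1 from this comparison. Ltbp1, a carrier of latent TGF-beta, was at 65.1, 86.0 and 73.3 CPM in WT and 113, 248 and 163 CPM in Egr1KO (log2 fold change 1.41, edgeR exact test, FDR 0.0052). It was also called higher at 6 h PCS than at 0 h in Egr1KO, where Fbn1, Fbn2 and Ltbp2 were not (log2 fold change 1.16, edgeR quasi-likelihood F-test, FDR 0.024). Col18a1, the capsule and ciliary basement membrane collagen XVIII, followed the fibrillins, at 15.6 CPM in WT 0 h replicate 2 and 1162 to 1924 CPM in FosBcKO at 6 h PCS.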

How the data were processed

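Lens capsule RNA of 18 pools was sequenced as stranded, ribodepleted read pairs. Per the labels and the study's methods, the authors aligned with HISAT2 and used HTSeq to count pairs for each Ensembl gene, and the deposited values are raw counts. The labels name GRCm39 and the methods GRCm38, so no coordinates are given. Summary lines that name no gene were left out. Groups and replicate numbers came from the labels.

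Counts were tested with edgeR 4.0.16 in R 4.3.3 (filterByExpr, TMM scaling, robust dispersions), over all genes and within the 6 libraries of each comparison. The quasi-likelihood F-test served 6 h against 0 h and, over all 18 libraries, the interactions, and the exact test served the genotypes, as in the study. Standard errors came from the quasi-likelihood fit. Tests were checked on simulated counts. DESeq2 1.42.0, other scaling, filters and dispersions, a replicate block and leaving out each library were alternatives. The ratios to ciliary markers were computed with and without Aqp1, the second chosen after seeing the data.

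All 10 genes are named, with the 2 genes most like Fbn1 and genes of the lists. The members and lists were chosen with earlier results of these data known. Names of genes outside the 10 came from the study's annotation. Same-numbered WT libraries deviated together between 0 h and 6 h (correlations 0.127 to 0.324, all over 0.1), so the numbers were taken to pair them, and the block left the 1 WT call in place. Differently numbered WT libraries were at -0.304 to 0.0441. The labels record no pairing, and differently numbered libraries of FosBcKO and WT at 6 h PCS reached 0.534, so the pairing remains an assumption. In the other comparisons not every pair passed 0.1. The authors' own fold changes and p-values were not used. One ciliary marker is not reported here, for a reason unrelated to its values, and enters no sum.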

Additional observations from a re-analysis of the deposited data

How the results depend on the processing

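Over the 18 gene-level calls, 288 alternative values were computed, of which 227 were called as before, 61 were no longer called and 0 changed direction. With all 18 libraries in one fit, the number of genes called was 0 for 6 h against 0 h in WT, 0 in FosBcKO, 0 in Egr1KO against WT at 6 h, 3 in FosBcKO against WT at 6 h, and 0 in Egr1KO against FosBcKO at 0 h and 0 at 6 h. By the quasi-likelihood F-test it was 0 for Egr1KO against WT at 6 h. DESeq2 gave 2 for FosBcKO at 6 h against 0 h. Without a filter it was 0 for WT at 6 h against 0 h and 3 for each interaction. With no fold minimum it was 1 for Egr1KO at 6 h against 0 h and 2 for Egr1KO against FosBcKO at 0 h, where dispersions without the robust option also gave 2. The cause was not tested.

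With a replicate block, where the samples share only a number, the count was 0 for Egr1KO against WT at 6 h, 1 for FosBcKO against WT at 6 h and 0 for Egr1KO against FosBcKO at 6 h, and it was unchanged in the other 8 tests. Leaving out each library in turn, 6 h against 0 h had 0 to 2 calls in WT, 0 to 1 in Egr1KO, and in FosBcKO 1 to 4. There were 1 to 3 for Egr1KO and 5 to 5 for FosBcKO against WT at 6 h, 0 to 0 for both at 0 h, 0 to 2 and 3 to 5 for Egr1KO against FosBcKO at 0 h and 6 h, and 0 to 0 for the interactions. With counts of 0 to 9, Mfap5 could not be tested at this depth.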
